A study of Rattus norvegicus with 2 samples.

Results

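The subunits of the respiratory chain and of ATP synthase were followed on 1 array of ETS abnormal muscle fibers and 1 array of control fibers. They were found by gene symbol alone. A probe set, the group of short probes that reads a transcript on this array, was a member when the platform annotation gave it a single symbol of a complex I, II, III or IV subunit, of cytochrome c, or of ATP synthase, with assembly factors left out. This gave 92 probe sets of 83 genes, of 31042 probe sets for rat genes on the array, of which 20826 carry 1 symbol (14217 genes). Complex I contributed 39 probe sets, complex II 5, complex III 9, the nuclear part of complex IV 17, ATP synthase 20 and the mitochondrial genome 2 (COX1 and COX2). No member carried the symbol Cycs. The rule also took in Cox6c-ps1, a pseudogene, Atp5if1, the inhibitor of ATP synthase, and Ndufa4 and its relative Ndufa4l2, the former now placed in complex IV by structural work.

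The respiratory chain passes electrons from NADH through complex I, or from succinate through complex II, to ubiquinone, and from there through complex III and cytochrome c to oxygen at complex IV, while ATP synthase spends the proton gradient this builds. Complexes I, III and IV and ATP synthase are assembled from nuclear and mitochondrially encoded subunits, whereas every subunit of complex II, succinate dehydrogenase (SDH), comes from the nucleus. Fibers in which deleted mitochondrial genomes have expanded therefore stain negative for cytochrome c oxidase (COX), the enzyme of complex IV, and remain, or become hyper-reactive, for SDH.

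Both pools were laser-captured cross-sections of Vastus lateralis, a fast muscle of the thigh, from F344 x BN F1 hybrid rats. The labels give an age of 36 months, the methods a younger one, and the design text names a single animal. The ETS abnormal pool held fiber segments without COX activity and with excess SDH activity, called ragged red in the labels, and the control pool held COX positive fibers with normal SDH. Neither group was treated, and both share strain, muscle and age. Each pool merges sections of many fibers, its RNA went through 2 rounds of T7 amplification, and each is a single sample on a single array. There is thus no replicate, no error and no p-value for any value here, and, although the methods state that the number of sections was matched, fewer cells of a type and less RNA per cell cannot be told apart. Values are GCOS signals, a linear intensity per probe set, scaled by the authors so that the 2% trimmed mean was 1000.1 on both arrays.

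Most of these subunits did not exceed a background set from genes that muscle does not use. Background was set on each array at the 95th percentile of 130 probe sets that read 120 genes foreign to skeletal muscle, such as olfactory and taste receptors, lens crystallins and pancreatic enzymes, and its values were 3659.5 (ETS abnormal) and 3155 (control). Of the 92 members, 5 (5.43%) lay above background in the ETS abnormal pool, where 3.1% of all gene probe sets did, and 7 (7.61%) in the control pool, where 5.83% did. By the choice of percentile, 5.38% of the foreign probe sets themselves lay above background on each array. The members' share in the ETS abnormal pool was thus near that of the foreign genes. Ndufb11 was the member above background on both arrays, and 81 members were above it on neither. A looser level, the median of the genes foreign to muscle, was exceeded by 35 members for ETS abnormal and by 48 for control. By definition 50% of the foreign probe sets exceed this level, so the counts do not show detection. The level was 913.05 (ETS abnormal) and 674.15 (control). The median signal of all gene probe sets lay below it on both arrays, at 565.5 and 559.1. Probes of different genes bind with different strength, so signals are compared below within a probe set and not between genes. For the same reason, a member below this background is not shown to be absent. The GCOS present calls, scored for each probe set, were not used.

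**Figure D1:**
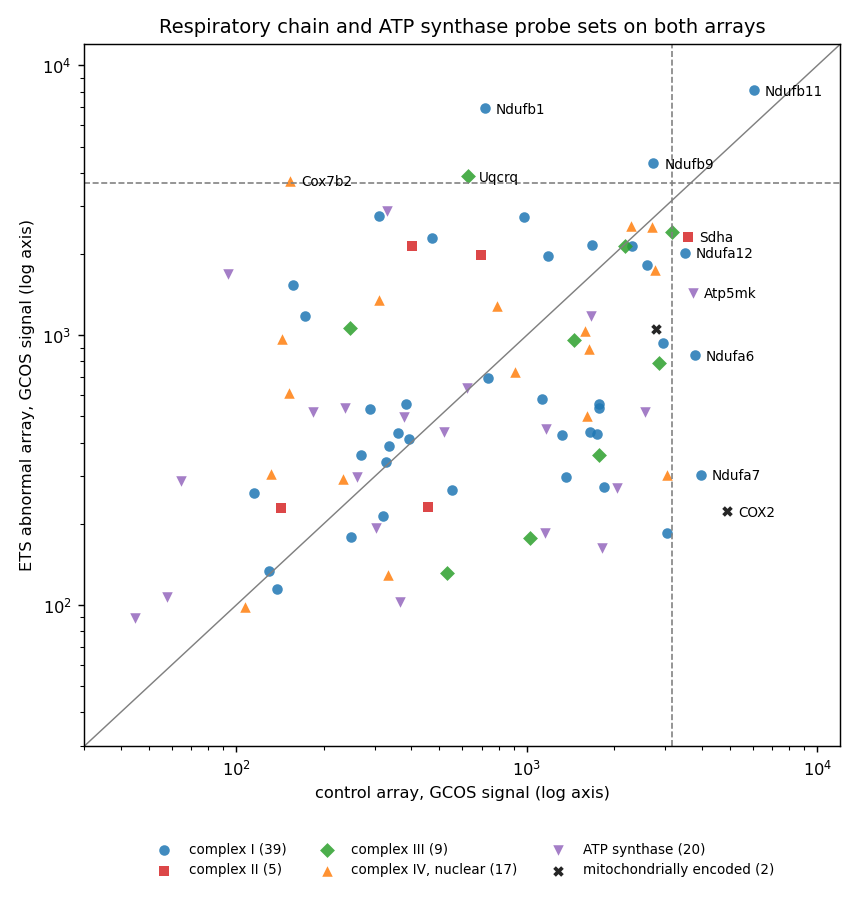
GCOS signal of each of the 92 member probe sets on the control array (horizontal, log axis) and the ETS abnormal array (vertical, log axis), by complex (number of probe sets in the legend). Dashed lines give the backgrounds (3155 and 3659.5), the solid line marks equal signals, and the 11 named probe sets lie above background on at least 1 array.

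On the deposited values, with no background, 22 members (23.9%) were at least 2-fold brighter in the ETS abnormal pool and 28 (30.4%) in the control pool, and at 4-fold 15 were in each. Over all gene probe sets the 2-fold shares were 32.6% and 31.1%, so both 2-fold shares of the members lay below those of the array as a whole. The shares of all gene probe sets at 4-fold are not given. The other 42 members (45.7%) differed by less than 2-fold, against 36.3% of all gene probe sets. As a log2 ratio, the ETS abnormal over the control signal, the median was -0.12 for the members and 0.06 for all gene probe sets. The members' median was -0.61 over the 60 that exceeded the looser level on at least 1 array, against -0.16 for all gene probe sets so filtered. With values floored at background the median was 0.21 for the members and for all gene probe sets, which is the ratio of the backgrounds. Ratios ran from -4.46 for COX2 to 4.61 for Cox7b2. Of the members, 88 lay between -3.69 and 4.22, the 5th and 95th percentiles of the genes foreign to muscle, which correspond to signals 12.9-fold brighter in control and 18.6-fold brighter in the ETS abnormal pool. The 4 outside were COX2, Ndufa9 and Ndufa7 on the control side and Cox7b2 on the ETS abnormal side. Over all gene probe sets 4.98% lay below that range and 2.84% above it. Members thus fell outside it no more often than the array as a whole.

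A stricter call asked that a member lie above background on an array and exceed both its own signal and the background of the other array by 2-fold or more. Ndufb1, an accessory subunit in the membrane arm of complex I, met it, with a signal of 6922.5 in the ETS abnormal pool against 717 in the control pool. Because 717 is under background, the difference is given as at least 2.19-fold. That is 1 of 92 members called higher in the ETS abnormal pool, where 0.0999% of all gene probe sets were, and none was called higher in the control pool, where 0.029% were. The call of Ndufb1 did not survive a 99th percentile background or a 4-fold threshold.

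The mitochondrially encoded subunits were dimmer in the ETS abnormal pool on both of their probe sets. COX2, which carries the copper centre that accepts electrons from cytochrome c, had a signal of 223 in the ETS abnormal pool and 4898 in the control pool. The control value lay above background and the other far below, a difference of at least 1.34-fold. COX1, the catalytic subunit of the same enzyme, had 1054 in the ETS abnormal and 2781 in the control pool, both below background, so that no fold is given. The log2 ratio of COX2 lay at the 1.76th percentile of all gene probe sets and that of COX1 at the 25.5th. Both directions were the same after scaling to the 75th percentile and after quantile normalization. These scalings changed the signals little (COX1 had 1064 and 2753 at the 75th percentile), so they could not have reversed the directions. No other mitochondrially encoded protein gene was named on the array, so the pair stands for 1 complex. Of the 90 nuclear members, 22 (24.4%) and 26 (28.9%) were at least 2-fold brighter in the ETS abnormal and the control pool. Over all gene probe sets 32.6% and 31.1% were. The median log2 ratio of the nuclear members was -0.10, against -2.93 for the 2 mitochondrially encoded ones. With 2 genes on 1 array per group this difference could not be tested.

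**Figure D2:**
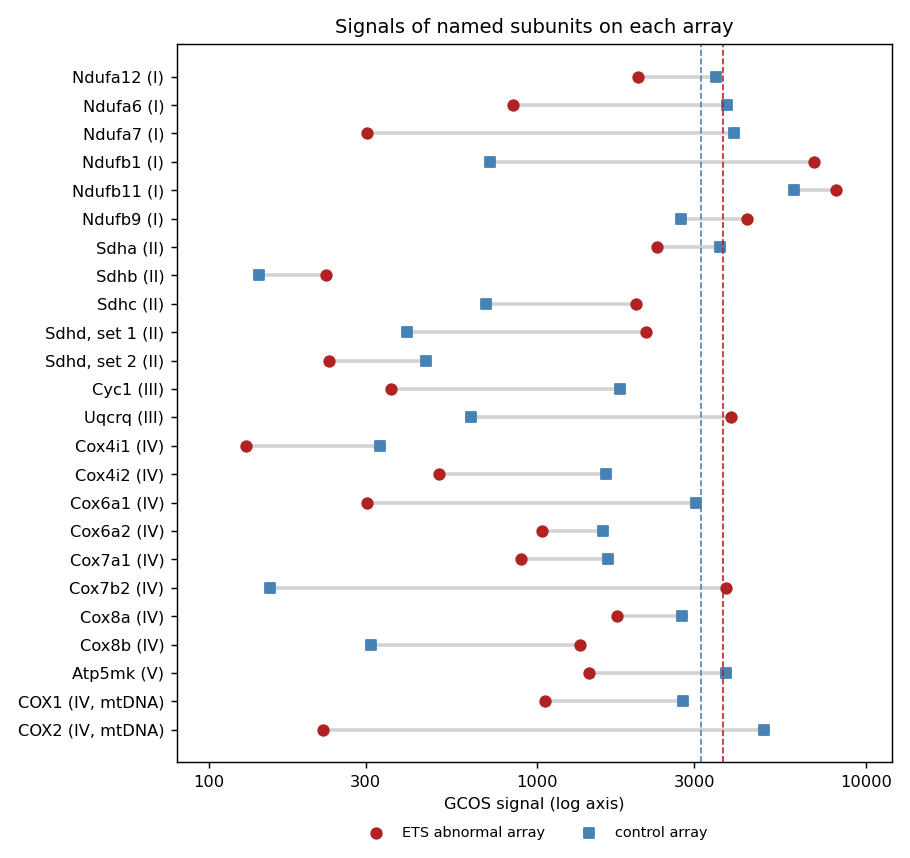
GCOS signal (log axis) of 24 probe sets for ETS abnormal (red circles) and control (blue squares), with the complex in parentheses, joined by a grey line. Shown are the members above background on either array, every SDH subunit, COX1, Cyc1 and the tissue isoforms of complex IV, and dashed lines mark the backgrounds. Ndufb1 lies above both lines in the ETS abnormal pool and COX2 in the control pool.

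SDH, whose activity is raised in these fibers, showed no common direction among its subunits. Sdha, the flavoprotein that oxidizes succinate, had a signal of 2311 in the ETS abnormal pool and 3584 in the control pool, where it was above background. Since 3584 is under the background of the ETS abnormal array, no lower bound above 1-fold can be given. Sdhb, the iron-sulfur subunit, had 228 and 143, and Sdhc, a membrane anchor that binds ubiquinone, had 1988 and 696, all below background. The probe sets of Sdhd, the other anchor, disagreed. The first had 2136 in the ETS abnormal and 402 in the control pool and the second had 232 and 458. Of the 5 probe sets, 2 were at least 2-fold brighter in the ETS abnormal pool and 0 in the control pool. Over all gene probe sets 32.6% and 31.1% were. The 5 had a median log2 ratio of 0.68 and a range of -0.98 to 2.41.

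In complex I the core subunits, which hold the flavin and the iron-sulfur clusters of the electron path, were all below background on both arrays. Ndufv1, the NADH-binding subunit, had 134 in the ETS abnormal and 129 in the control pool. Ndufs3 had 411 and 392, Ndufs8 2144 and 2306, and Ndufs1 556 and 384. Ndufs7 had 267 and 554 and Ndufv2 558 and 1774, both more than 2-fold dimmer in the ETS abnormal pool. Thus 4 of 6 core probe sets were within 2-fold, where 16 of 33 accessory probe sets and 36.3% of all gene probe sets were, and the median log2 ratio was -0.03 (range -1.67 to 0.53). Of the 33 accessory probe sets, 7 (21.2%) were at least 2-fold brighter in the ETS abnormal and 10 (30.3%) in the control pool. Over all gene probe sets 32.6% and 31.1% were. The accessory ratios spanned -4.03 to 3.29, with a median of -0.08. The core set is small, it was singled out after its values were seen, and its range was not tested against the other.

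Accessory subunits above background appeared on either side. Ndufb11, a membrane arm subunit, had a signal of 8081 in the ETS abnormal and 6046 in the control pool, a 1.34-fold difference. Ndufb9, in the same arm, had 4337 and 2727, at least 1.37-fold. In the control pool alone the list held 3 subunits of the matrix arm. Ndufa7 had 303 in the ETS abnormal and 3971 in the control pool (at least 1.09-fold), and its other probe set pointed the same way with 428 and 1323. Ndufa6 had 841 and 3782.5 (at least 1.03-fold) and Ndufa12 2022 and 3495, with no bound above 1-fold. Grouped by name, 3 of 11 Ndufb probe sets and none of 16 Ndufa probe sets lay above background in the ETS abnormal pool. In the control pool 1 and 3 did. Over all gene probe sets the shares were 3.1% (ETS abnormal) and 5.83% (control). The grouping was made after the values were seen, and a difference between the name groups was not tested. The median log2 ratios were 0.42 for Ndufb and -0.29 for Ndufa, inside the quartiles of all gene probe sets (-1.44 and 1.55).

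Below background, the widest differences in complex I toward the ETS abnormal pool were those of Ndufv3, an accessory subunit of the NADH-oxidizing module, with 1534 against 157, and Ndufs4, needed for the stability of that module, with 2754 against 311. The other probe set of Ndufv3 had 2167 and 1681. Toward the control pool they were Ndufa9, a subunit near the ubiquinone site, with 185 against 3025, and Ndufab1, the mitochondrial acyl carrier protein, with 273 against 1848. The second probe set of Ndufa9 had 579.9 and 1132. Ndufa4l2, known as a hypoxia-induced relative of Ndufa4, had 2748 and 981, whereas Ndufa4 had 1821 and 2591.5. Over the 39 probe sets of complex I, 7 (17.9%) were at least 2-fold brighter in the ETS abnormal and 12 (30.8%) in the control pool. Over all gene probe sets 32.6% and 31.1% were.

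In complex III 7 of 9 probe sets were dimmer in the ETS abnormal pool, against 48.7% of all gene probe sets, and 8 of the 9 were below background on both arrays. At least 2-fold dimmer there were Cyc1, cytochrome c1, with 359 against 1777, Uqcrh, the hinge protein beside it, with 792 against 2840.4, Uqcr10 with 177 against 1028, and Uqcr11 with 131 against 530.2. All 4 were below background on both arrays. Uqcrfs1, the Rieske iron-sulfur protein, had nearly equal signals of 2140.2 and 2170.6. In the opposite direction Uqcrq, a small subunit bound to cytochrome b, lay above background in the ETS abnormal pool, with 3883 against 628, at least 1.23-fold. Of the core proteins, Uqcrc1 had 957 and 1459, and Uqcrc2 had 2404 and 3153 on a probe set just under the control background and 1065 and 247 on another. The median log2 ratio was -0.61, and it was -1.23 with the brightest probe set of each gene alone.

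Nuclear subunits of complex IV went both ways, while most of the isoforms that muscle exchanges for those of other tissues were dimmer in the ETS abnormal pool. Cox6a2, the heart and muscle form, had 1035 in the ETS abnormal and 1582 in the control pool, and Cox6a1, the form of other tissues, had 304 and 3030.0. Cox7a1, the muscle form of another small subunit, had 890.1 and 1638, and no probe set was named Cox7a2. Cox8b, the muscle form of subunit VIII, had 1352 and 311, while the ubiquitous Cox8a had 1744 and 2755. Cox4i1, the general form of subunit IV, had 129.5 and 333, and Cox4i2, the form of lung and other oxygen-sensing tissues, had 501 and 1612. None of these 7 was above background on either array. Of the 3 muscle forms 1 (Cox8b) was brighter in the ETS abnormal pool and of the others none, where 51.2% of all gene probe sets were.

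The nuclear complex IV member above background was not a muscle isoform. Cox7b2, described from testis, had 3739 in the ETS abnormal pool and 153.5 in the control pool, at least 1.19-fold, and its log2 ratio of 4.61 lay at the 98.4th percentile of all gene probe sets. Its somatic counterpart Cox7b had 1281 and 791. Cox5a, which binds the regulatory subunit IV on the matrix side, had 966 against 144. Cox6c had 98.4 and 108, and its pseudogene 613 and 152, which share sequence and may share signal between their probes. Over the 17 probe sets, 5 (29.4%) were at least 2-fold brighter in the ETS abnormal and 3 (17.6%) in the control pool. Over all gene probe sets 32.6% and 31.1% were. The median log2 ratio of the 17 was -0.10.

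The catalytic head of ATP synthase showed no common direction, with 3 of 5 probe sets dimmer in the ETS abnormal pool, where 48.7% of all gene probe sets were, and all 5 below background on both arrays. The head consists of the products of Atp5f1a to Atp5f1e. The alpha subunit Atp5f1a had 449.5 against 1162, the catalytic beta subunit Atp5f1b 519 against 2557, and the delta subunit Atp5f1d 271 against 2051. In the other direction the gamma subunit Atp5f1c, the rotating shaft, had 2885 against 331 and the epsilon subunit Atp5f1e 298 against 259.8. In the membrane part, Atp5mc3, a ring subunit that carries the protons, had 163 against 1811, and Atp5mk, a small dimer-stabilizing subunit, had 1434.5 against 3744, above background in the control pool and at least 1.02-fold. Toward the ETS abnormal pool stood Atp5po, the stalk protein that confers oligomycin sensitivity, with 1685 against 93.5, and Atp5pf with 288 against 64.7. Its second probe set left Atp5po level, with 639.5 and 623. The head had a median log2 ratio of -1.37 over 5 probe sets and the membrane part and stalk -0.10 over 12. For all 20 the counts at 2-fold were 6 (30%) in the ETS abnormal and 7 (35%) in the control pool. Over all gene probe sets the shares were 32.6% and 31.1%.

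**Figure D3:**
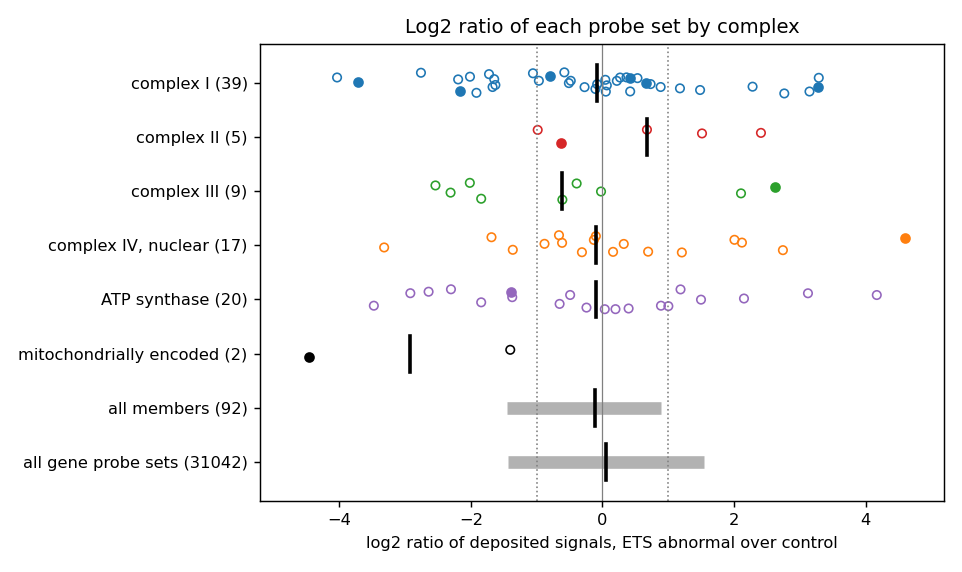
Log2 ratio of the deposited signals, ETS abnormal over control, for each member probe set by complex. Filled points lie above background on at least 1 array, open points on neither, black bars mark medians, grey bars span the quartiles of all members and of all gene probe sets, and dotted lines mark 2-fold. Complexes I, IV and V are centred near 0 (-0.08, -0.10 and -0.10), complex II lies at 0.68, complex III at -0.61 and the mitochondrially encoded pair at -2.93.

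Among complexes the medians thus ran from -2.93 for the mitochondrially encoded pair through -0.61 for complex III, -0.10 for ATP synthase, -0.10 for nuclear complex IV and -0.08 for complex I to 0.68 for complex II. Those of the 5 nuclear groups lay inside the quartiles of all gene probe sets. The ratios of their single probe sets overlapped throughout, and with 1 array per condition no difference between complexes could be tested.

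Probe sets of a gene read the same transcript or its variants, and they repeated each other only in part. For 8 member genes the array holds more than 1 probe set, which gives 10 pairs. In 6 of them (60%, 95% Wilson interval 31.3 to 83.2, counting error only) both log2 ratios had the same sign, against 50.8% of 9597 pairs over all genes. The pairs are not independent, since 3 of them come from Atp5if1. Ndufa7, Ndufa9 and Atp5me were dimmer and Ndufv3 brighter in the ETS abnormal pool on each of their probe sets, whereas Sdhd and Uqcrc2 differed in direction. Atp5po counts among the 6 although its second probe set was nearly level, with a log2 ratio of 0.04. The 3 probe sets of Atp5if1 had 102 and 367, 497.6 and 377, and 89.8 and 44.8. Within a pair the ratios differed by a median of 2.67 on the log2 scale, against 2.16 over all genes. The share over all genes is near even, so across the arrays a second probe set repeated the direction of the first about as often as not.

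**Figure D4:**
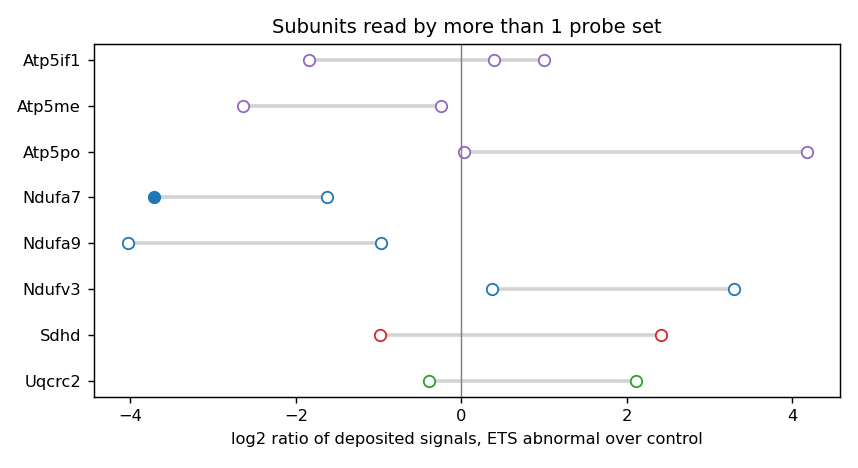
Log2 ratio of the deposited signals, ETS abnormal over control, for the 8 member genes that more than 1 probe set reads, each point a probe set, filled where it lies above background on 1 array. The probe sets of Sdhd, Uqcrc2 and Atp5if1 lie on both sides of 0, those of the other 5 genes on 1 side.

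The rank order of signals was shared more between the arrays over the members than over all gene probe sets. The Spearman correlation of the arrays was 0.33 over the 92 members and 0.14 over the 31042 gene probe sets. These points share 2 arrays and differ in probe affinity, which enters a ranking of different genes. No other gene list was set beside the members, and genes are not independent replicates, so the values are a description.

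Nuclear members are known targets of nuclear respiratory factor 1 (NRF1) and of ETS-family factors such as GABP, which tie the expression of many subunits to each other. RefSeq promoter sequences (GRCr8) were at hand for 72 of the 83 genes and were searched on both strands over the 250 bases before the start. The letters GCGCANGCG, a core of the NRF1 site, were in 14 member promoters (19.4%) and in 5.53% of 27457 promoters of all genes. The letters CCGGAAG, a core of the ETS site, were in 19 (26.4%) and in 7.74%, and neither motif contains the other. The 17 probe sets of genes with the first motif had a median log2 ratio of -0.10 and the 64 without it -0.06. For the second these were -0.03 over 22 and -0.10 over 59. A match is a description of letters and not of binding. The 100 bases before the start are shown for members above background on an array, with matches in capitals, to set a promoter with a pair of NRF1 matches (Sdha, chr1:30764453-30764552, plus strand) beside a promoter with an NRF1 match (Ndufa6, chr7:115750318-115750417, minus strand, with an ETS match further upstream that is not shown), a promoter with an ETS match (Uqcrq, chr10:38089979-38090078, minus strand), and that of Ndufb1 (chr6:126888865-126888964, minus strand), where neither motif was found.
Sdha: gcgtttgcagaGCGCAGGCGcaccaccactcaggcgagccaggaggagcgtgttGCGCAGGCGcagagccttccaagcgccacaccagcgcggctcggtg
Ndufa6: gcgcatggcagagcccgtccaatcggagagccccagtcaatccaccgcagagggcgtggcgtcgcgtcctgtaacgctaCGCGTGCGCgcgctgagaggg
Uqcrq: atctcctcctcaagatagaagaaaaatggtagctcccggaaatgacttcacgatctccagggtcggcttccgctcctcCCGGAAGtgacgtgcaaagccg
Ndufb1: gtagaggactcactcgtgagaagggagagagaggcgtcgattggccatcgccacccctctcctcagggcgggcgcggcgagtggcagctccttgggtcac

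Genes that work around the chain were above background in few cases too. Over all gene probe sets 3.1% (ETS abnormal) and 5.83% (control) were. Of 58 probe sets of assembly factors, 2 lay above background in the ETS abnormal and 4 in the control pool, among them Hccs, which attaches heme to cytochromes c and c1, with 5224 and 4419 on a probe set and 152 and 3809 on another. Of 18 for other electron donors and ubiquinone synthesis none and 3 did, with Dhodh, a pyrimidine enzyme that reduces ubiquinone, at 1798 in the ETS abnormal and 5160.2 in the control pool (at least 1.41-fold). None of 20 for the citric acid cycle and none of 17 for mitochondrial DNA maintenance and transcription did on either array. On the deposited values 9 of these 17 were at least 2-fold brighter in the ETS abnormal and 3 in the control pool. Over all gene probe sets 32.6% and 31.1% were. The median log2 ratio of the 17 was 1.22, within the quartiles of all gene probe sets. With every one of them below background, a difference from the array was not tested. Among 30 for regulators of respiratory genes 2 and 1 lay above background. In the ETS abnormal pool these were Esrra, a nuclear receptor that drives respiratory genes, with 4384 against 1846 (at least 1.39-fold), and its relative Esrrb with 4088 against 558 (at least 1.30-fold). In the control pool it was Ppard, with 472 against 4829.5 (at least 1.32-fold).

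Other large complexes had more probe sets at least 2-fold brighter in the ETS abnormal than in the control pool, whereas the members had fewer (23.9% and 30.4%). Over all gene probe sets the shares were 32.6% and 31.1%. Of 72 probe sets of cytosolic ribosomal proteins, 29 (40.3%) were brighter in the ETS abnormal and 16 (22.2%) in the control pool (median log2 ratio 0.39). Of 48 of proteasome subunits, 17 (35.4%) and 14 (29.2%) were (0.26). For the 130 of genes foreign to muscle the counts were 54 (41.5%) and 37 (28.5%), with a median of 0.31. Against these stood the median of the respiratory members, -0.12, while skeletal muscle fiber genes had -0.17 over 29 probe sets and the other electron donors and ubiquinone synthesis -0.31 over 18. No difference between these lists could be tested with 1 array per condition.

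The labelled tissue was not evident from its markers. Of 19 skeletal muscle fiber genes on the array, 2 lay above background in the ETS abnormal pool, Acta1 (3683 against 2557) and Tnni2 (3663 against 248), and none in the control pool, and the summed signal of their 29 probe sets was 27630.5 and 27188. Markers of other cells gave 1 of 8 endothelial and pericyte genes in the ETS abnormal pool (Acta2) and 2 in the control pool (Flt1 and Pdgfrb), with summed signals of 17679 and 17413. For 6 macrophage and leukocyte genes these were 1 (Cd74) and 0, with 11034 and 11797, and for 6 fibroblast genes 0 and 0, with 4107 and 8329. Nerve and adipocyte genes gave 0 and 1 each (Mbp and Adipoq), with 7239 against 7285 and 5590.7 against 5279. The 2 erythroid genes gave none, with 796 against 3253. Their part in the values of the respiratory members was not tested.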

How the data were processed

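The authors captured, amplified and hybridized 1 pool per condition to an Affymetrix rat genome array and scored it with GCOS, for which the submitters' notes name version 1.40.036. The deposited values are 1 intensity per probe set on a linear scale, scaled per array as a whole, and no further scaling was applied because the 2% trimmed means were equal. The scaling target is not given in the sources used here, and the GCOS present calls on which the study based its lists were not used. The 57 control probe sets were set aside. With 1 array per group no test was made, and the number of arrays limits the precision.

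Symbols came from the platform annotation. Of 83 member genes, 81 matched the RefSeq gene table by gene ID, with no change of symbol, and coordinates are given for promoters alone, from the RefSeq promoter table (GRCr8). A fold is given for members above background on both arrays, a lower bound against the background of the dimmer array where only 1 value is above it, and signals alone otherwise. The members, gene lists and background genes were chosen with earlier results of these data known, and the subgroups of complex I, complex IV and ATP synthase after the values were seen. Named were members above background, the mitochondrially encoded genes, SDH, Cyc1 and tissue isoforms of complex IV, the 3 highest and 3 lowest ratios in complexes I, III, IV and V, and genes with 3 or more probe sets. Others, such as the complex I core, the ATP synthase head and the regulators, were added after their values were seen. The code was run on simulated arrays with much less noise than these, without and with 1 complex shifted. That checks the calculation and says nothing on the reliability of the values reported here. Alternatives were 2 other scalings, 2 other backgrounds, a 4-fold threshold, 1 value per gene, leaving out probe sets that can match several transcripts, a filter on low signals and a floor. The software was Python 3.11.15 with pandas 2.3.3, numpy 2.4.6, scipy 1.17.1 and matplotlib 3.10.9.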

Additional observations from a re-analysis of the deposited data

How the results depend on the processing

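Of 65 alternative values, 54 stayed within 1.5 times a count, the binomial interval of a median or share (the range of the values for groups under 6 probe sets), and 11 did not. With a 99th percentile background, 2 members were above it in the ETS abnormal pool (Ndufb1 and Ndufb11) and 3 in the control pool (COX2, Ndufa7 and Ndufb11), and 0 were called. With a median background, 35 and 48 were above it, and 12 were called in each direction. Shares of all gene probe sets at that background are not given, so these counts are not a result about the members. A 4-fold threshold gave 0 calls in the ETS abnormal pool and, on the deposited values, 15 members brighter in the control pool and 15 in the ETS abnormal pool, where 28 and 22 were at 2-fold. The median log2 ratio of the members was -0.61 over the 60 above the median of the genes foreign to muscle on at least 1 array, where the median of all gene probe sets so filtered was -0.16, and 0.21 with values floored at background, which is the ratio of the backgrounds. Medians of the complexes stayed inside their intervals under quantile normalization and with 1 probe set per gene, but the intervals are wide and treat genes as independent, and with 1 probe set per gene that of complex III went from -0.61 to -1.23 and that of complex II from 0.68 to 1.10. No paired analysis was possible because each group has 1 array. Signals below background limit what can be read of 81 members.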
